A study of Flaveria sonorensis and Flaveria ramosissima with 8 samples.

Results

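The 243 rows described here were abundant in leaves of *F. ramosissima* and listed at 0 in every library of *F. sonorensis*. They were selected by their values in the deposited table, as rows with exactly 0 TPM in all 4 *F. sonorensis* libraries and a mean of at least 100 TPM over the 4 *F. ramosissima* libraries. TPM is a read count divided by transcript length and scaled to a fixed total of 1000000 per library. The listed rows summed to less, 901451 to 911412 TPM in *F. ramosissima* and 849828 to 868947 TPM in *F. sonorensis*. Shares and ranks given here therefore refer to the listed rows only. The 243 rows made up 1.03% of the 23519 rows of the table and 3.68% of the 6605 rows that were detected in *F. ramosissima* and at 0 throughout *F. sonorensis*. The selection used the contrast between the species, therefore the levels in both species are given as a description, and no test of that contrast was made.

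RNA-seq was performed on newly expanded mature leaves, with 4 libraries of *F. ramosissima* and 4 of *F. sonorensis*. Both species are given without genotype, mutation or transgene. Per the labels, all 8 libraries share one growth condition: a chamber at 200 μmol m-2 s-1 of light, 22 °C, 70% humidity, 16 h of light and 8 h of dark, and low CO2, given as 100 in μmol m-2 s-1, a unit of flux. The labels carry "6 months", without saying whether it is plant age or treatment length, and do not say whether replicates came from separate plants.

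*Flaveria* is a genus of the daisy family that holds C3 species, C4 species and intermediates, and is used to follow the evolution of C4 photosynthesis. In C3–C4 intermediates, glycine decarboxylase is concentrated in the bundle sheath, so that CO2 released in photorespiration can be refixed there. *F. sonorensis* belongs to type I intermediates, which rely on this glycine shuttle, and *F. ramosissima* to type II, which in addition run part of a C4 cycle. Low CO2 raises the rate of photorespiration. Leaf transcriptomes are dominated by a small number of genes, many of them for photosynthesis.

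Each row carries a running number as its name, which the table pairs with no gene name, locus or sequence. Hence the function of the 243 rows is not given here, the leaf identity of the samples was not checked against marker genes, and only the rows of highest and second highest abundance are named. The others are identified by their rank among the 243 rows, with rank 1 as the highest mean in *F. ramosissima*. Whether a 0 stands for a transcript below detection, or for a row without a matching *F. sonorensis* sequence, was not tested.

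The most abundant rows at 0 in *F. sonorensis* were among the most abundant transcripts of the *F. ramosissima* leaf. In *F. ramosissima*, Gene12495, of rank 1, had 8658, 8184, 8897 and 7880 TPM in replicates 1 to 4 (mean 8405 ± 459, SD, n = 4) and 0 in each *F. sonorensis* library. Gene23533, of rank 2, had 7754, 7232, 8200 and 7686 TPM (mean 7718 ± 396, SD, n = 4) and likewise 0 in *F. sonorensis*. The values of the 4 libraries thus lay within 1.13-fold of each other in each of these rows. By mean abundance, they ranked 12 and 16 among all rows of the *F. ramosissima* table, and their rank in single libraries ranged from 12 to 14 and from 15 to 17. They held 0.928% and 0.852% of the summed TPM. By the selection rule, the species did not overlap in any of the 243 rows. Of the 16323 rows averaging 1 TPM or more over all 8 libraries, all 4 *F. ramosissima* values lay above all 4 *F. sonorensis* values in 3986 (24.4%). Of the 1110 rows averaging 100 TPM or more in *F. ramosissima*, this was so in 698, which include the 243 rows. Among the 856 of them above 0 in all *F. sonorensis* libraries, it was so in 444 (51.9%), and the reverse in 221. As these libraries are bulk leaf samples, fewer cells of a type and less RNA per cell cannot be told apart.

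Abundance decreased steeply along the ranks. Rank 3 had 5800, 4884, 5515 and 5373 TPM in replicates 1 to 4. Rank 4 had 4931, 4881, 4971 and 4216 TPM, with replicate 4 below the other replicates. In the row of rank 5, the values were 4032, 3752, 2243 and 3985 TPM. Its level in replicate 3 was well below that in the other libraries, and its coefficient of variation (CV, the SD over the 4 libraries as a percentage of their mean) was 24.2%, the highest among the first 10 rows. For rank 6, they were 3467, 2645, 3156 and 3116 TPM, with replicate 2 the lowest. Similarly, rank 7 had 2401, 2294, 2626 and 2361 TPM, and rank 8 had 2427, 2359, 2777 and 2033 TPM. In both, replicate 3 was the highest library. At rank 9, the row had 2576, 2239, 2545 and 2219 TPM, and the row of rank 10 had 1926, 2182, 2155 and 2107 TPM. The libraries had no common order over these 10 rows.

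**Figure D1:**
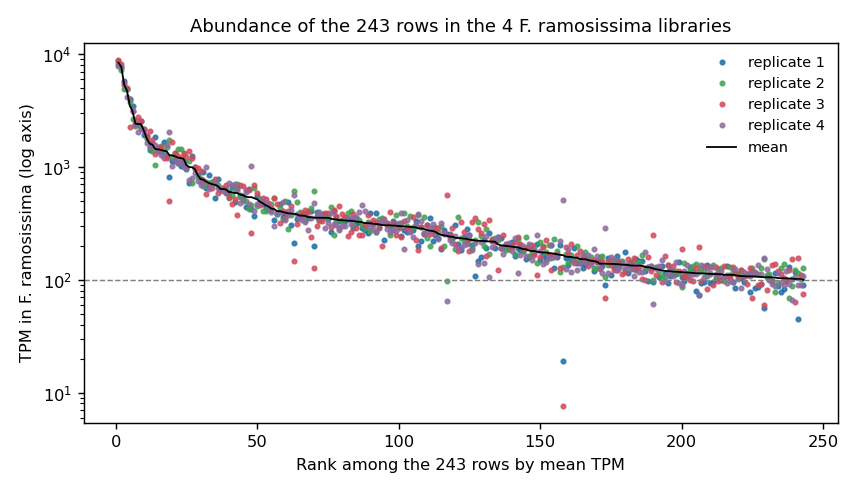
TPM in each *F. ramosissima* library (points, log axis) for the 243 rows at 0 in all *F. sonorensis* libraries, ordered by mean (line); the dashed line marks 100 TPM. The means run from 8405 down to 100.02 TPM, and the single row with points far below the line has 7.67 TPM in replicate 3 and 505 TPM in replicate 4.

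Abundance was spread unevenly over the 243 rows. In total, 25 rows had a mean of at least 1000 TPM, 25 had 500 to 1000 TPM, 87 had 200 to 500 TPM and 106 had 100 to 200 TPM. The median of the means was 234 TPM, with quartiles of 134 and 388 TPM. The 10 highest rows held 34.9% of the TPM of the 243 rows, and 24 rows were needed to reach 50% of it. The 15 rows of rank 11 to 25 had means from 1040 to 1789 TPM. For comparison, 856 rows were as abundant in *F. ramosissima*, averaging 100 TPM or more, and above 0 in all 4 *F. sonorensis* libraries. These are called shared rows hereafter. Their median was 220.4 TPM, with quartiles of 139 and 444 TPM. In replicates 1 to 4, the median was 221, 235, 241 and 232 TPM for the 243 rows. For the shared rows, it was 214, 229, 220 and 228 TPM. The ranges over libraries overlapped, but within each library the median of the 243 rows was the higher. This difference was not tested. At the upper end, the highest shared row had a mean of 23885 TPM and 11 rows of the table lay above Gene12495.

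The rank within the leaf transcriptome was examined in each library. None of the 10 highest rows of any *F. ramosissima* library belonged to the 243 rows. Of the 50 highest rows, 9, 7, 7 and 7 belonged to them in replicates 1 to 4. Of the 100 highest rows, 16, 18, 16 and 17 did. These counts were similar between libraries, and remained so further down, at 39 to 41 of the 200 highest rows, 110 to 114 of the 500 highest and 198 to 218 of the 1000 highest. They are to be read against the share of the 243 rows among all rows averaging 100 TPM or more, which was 21.9%. The median rank of the 243 rows was 545, 544, 535 and 546 in replicates 1 to 4, in libraries with 19602 to 19958 rows above 0. By mean abundance, 113 of the 243 rows ranked within the first 500 and 212 within the first 1000. Only 1110 rows averaged 100 TPM or more, so the selection rule placed all 243 rows within the first 1110 by mean. The median rank therefore follows largely from the selection.

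**Figure D2:**
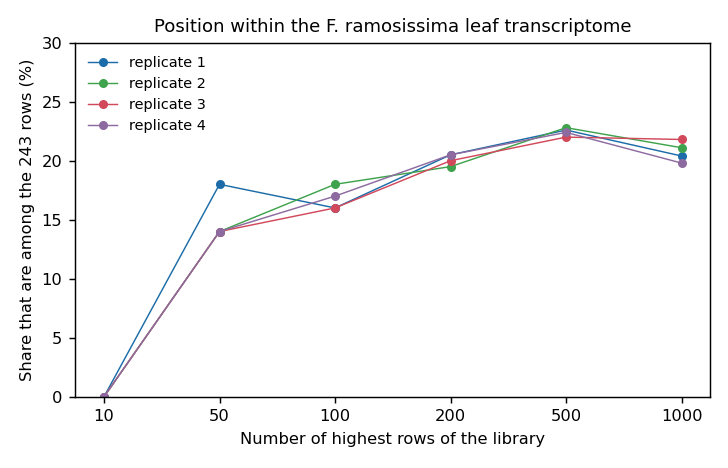
Share (%) of the 10, 50, 100, 200, 500 and 1000 highest rows of each *F. ramosissima* library that belong to the 243 rows at 0 in *F. sonorensis*, with a line per replicate. No library has such a row among its 10 highest, and the libraries lie close together from the 100 highest rows on. Among all rows averaging 100 TPM or more, the share is 21.9%.

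The 243 rows held a nearly constant part of each library. Their share of the summed TPM was 13.3%, 13.4%, 13.5% and 13.2% in replicates 1 to 4 of *F. ramosissima* (mean 13.3 ± 0.124%, SD, n = 4). Their summed abundance was 120836 ± 1716 TPM, out of column sums from 901451 to 911412 TPM. The shared rows held 65.0%, 64.3%, 67.8% and 62.8% (mean 65.0 ± 2.09%, SD, n = 4). The share of the shared rows therefore varied more between replicates, in percentage points, than that of the 243 rows, and for both sets replicate 3 was the highest and replicate 4 the lowest. Of the TPM held by all 6605 rows at 0 in *F. sonorensis*, the 243 rows held 76.9%, 75.7%, 79.4% and 74.0% in replicates 1 to 4. For comparison, all 1110 rows averaging 100 TPM or more held 80.2%, 79.7%, 83.3% and 78.0% of the TPM of these libraries, so a share of this size follows largely from selection at that threshold.

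The values in *F. sonorensis* were then examined among rows abundant in *F. ramosissima*. Of the 1110 rows averaging 100 TPM or more in *F. ramosissima*, 243 (21.9%) were at 0 throughout *F. sonorensis*, 856 (77.1%) were above 0 in all of them and 11 were at 0 in some. The highest of the 4 *F. sonorensis* values was above 100 TPM in 650 of the 1110 rows, above 10 and up to 100 TPM in 179, above 1 and up to 10 TPM in 32, and above 0.1 and up to 1 TPM in 6. In none of them was it above 0 and at most 0.1 TPM, although the smallest value listed above 0 in *F. sonorensis* was 0.01 TPM. The lowest such maximum above 0 was 0.31 TPM. Maxima above 0 and under 0.31 TPM were also rare among less abundant rows, with 25 of the 13226 rows at 1 to 100 TPM in *F. ramosissima*. Exactly 1 row was above 0 in a single *F. sonorensis* library, with 0.63 TPM in replicate 2, and it had 312, 369, 351 and 326 TPM in *F. ramosissima*. It lay just outside the selection. Of the 10 rows at 0 in 1 or 2 *F. sonorensis* libraries, the most abundant had 14455, 13762, 14845 and 14271 TPM in *F. ramosissima* and 1.55, 1.05, 0 and 0.50 TPM in *F. sonorensis*. The 11 rows together held 1.98 ± 0.0259% of the *F. ramosissima* TPM (SD, n = 4).

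Single libraries were then set against each other, to give the number of zeros at this abundance between replicates of one species. For each of the 16 pairs of an *F. ramosissima* and an *F. sonorensis* library, 233 to 257 rows had at least 100 TPM in the former and 0 in the latter, which was 21.3% to 23.5% of the rows of at least 100 TPM. Between *F. ramosissima* libraries, this count was 0 or 1 in all 12 ordered pairs. Between *F. sonorensis* libraries, it was 0 in all 12 ordered pairs. A row of this abundance was thus at most rarely at 0 in another replicate of its own species. In the opposite direction, 18 to 23 rows had at least 100 TPM in an *F. sonorensis* library and 0 in an *F. ramosissima* library. Over all libraries, 18 of the 1191 rows of such a mean in *F. sonorensis* were at 0 throughout *F. ramosissima* (1.51%), and they held 1.77 ± 0.0663% of the *F. sonorensis* TPM (SD, n = 4). These 18 rows had means from 105 to 4341 TPM.

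**Figure D3:**
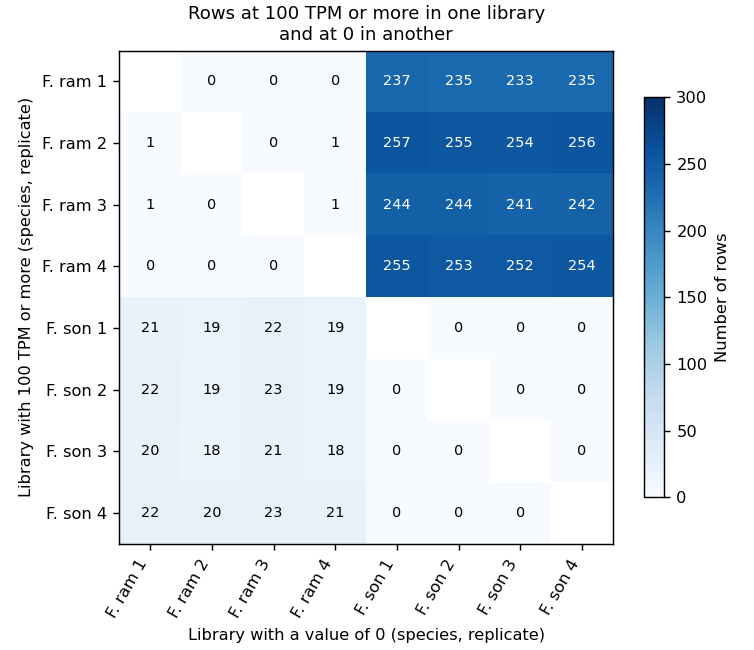
Number of rows with at least 100 TPM in the library of the line and exactly 0 in the library of the column, for all ordered pairs of the 8 libraries (F. ram, *F. ramosissima*; F. son, *F. sonorensis*; numbers are replicates). Counts are 233 to 257 for *F. ramosissima* against *F. sonorensis*, 18 to 23 in the opposite direction, and 0 or 1 within a species.

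Rows at 0 in *F. sonorensis* were also counted along the range of *F. ramosissima* abundance, and their share stayed between 15.0% and 24.7% in all classes of abundance from 10 TPM upwards. It was 18.8% of 3028 rows at 10 to 30 TPM, 19.8% of 1679 rows at 30 to 100 TPM, 21.3% of 675 rows at 100 to 300 TPM and 24.7% of 299 rows at 300 to 1000 TPM. It was 19.8% of 96 rows at 1000 to 3000 TPM and 15.0% of 40 rows at 3000 TPM or more, that is 6 rows. In the lowest classes, it was 30.4% of 3841 rows at 1 to 3 TPM and 21.6% of 4678 rows at 3 to 10 TPM. The classes directly below and above the threshold of 100 TPM thus had similar shares.

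Around the threshold, rows inside and outside were alike. The 3 rows just inside had 90, 127, 75 and 109 TPM, 104, 101, 111 and 89 TPM, and 45, 115, 156 and 91 TPM in replicates 1 to 4. The 3 rows just outside had 86, 87, 132 and 94 TPM, 129, 84, 90 and 94 TPM, and 96, 104, 114 and 84 TPM. In each of these 6 rows, the libraries lay on both sides of 100 TPM, so the replicate spread was larger than the distance to the threshold. There were 25 rows from 100 to 110 TPM and 25 rows at 0 in *F. sonorensis* from 90 to 100 TPM. Of the 243 rows, 191 had at least 100 TPM in each library, and 52 were below 100 TPM in at least one library.

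Replicate spread was similar to that of the shared rows. The median CV over the 4 *F. ramosissima* libraries was 14.9% for the 243 rows, with quartiles of 10.4% and 21.6%, and 13.8% for the shared rows, with quartiles of 9.48% and 20.9%. These values are over rows, which are not independent replicates, and the difference was not tested. A CV under 10% was found in 57 of the 243 rows (23.5%) and in 242 shared rows (28.3%). A CV over 50% was found in 10 of the 243 rows (4.12%) and in 25 shared rows (2.92%). The highest library was over 2-fold above the lowest in 21 of the 243 rows (8.64%) and in 91 shared rows (10.6%).

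The CV was lower in rows of high abundance, in both sets. Among rows of at least 1000 TPM, the median CV was 10.96% for the 25 rows at 0 in *F. sonorensis* and 10.9% for 109 shared rows. From 500 to 1000 TPM, it was 15.0% for 25 rows and 13.1% for 82 shared rows. From 200 to 500 TPM, it was 16.2% for 87 rows and 14.1% for 273 shared rows. From 100 to 200 TPM, it was 15.2% for 106 rows and 14.5% for 392 shared rows. In each class, the quartiles of both sets overlapped.

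**Figure D4:**
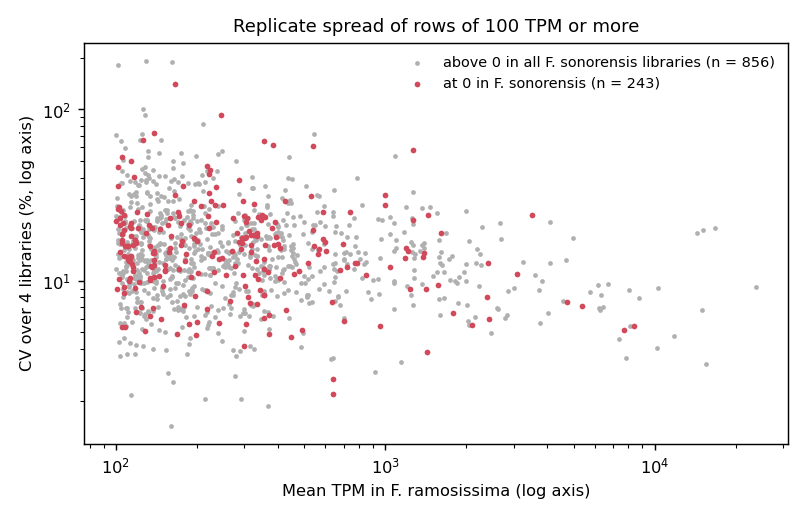
CV over the 4 *F. ramosissima* libraries against mean TPM (both log axes), for the 243 rows at 0 in *F. sonorensis* (red) and the 856 shared rows (grey). The red points lie within the cloud of grey points, with median CVs of 14.9% and 13.8%.

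The most even rows differed by little between libraries. The row of lowest CV (2.20%) had 635, 622, 642 and 655 TPM in replicates 1 to 4, the next (2.68%) had 639, 652, 648 and 614 TPM, and the third (3.81%) had 1400, 1457, 1500 and 1380 TPM. The most uneven rows were dominated by 1 or 2 libraries. The row of highest CV (141%) had 19.1, 130, 7.67 and 505 TPM, so that its mean of 165 TPM was above the threshold owing to replicate 4. The next (93.3%) had 254, 98.2, 566 and 64.2 TPM, with replicate 3 highest. The third (72.9%) had 90.5, 107, 69.0 and 289 TPM, with replicate 4 highest. Among the 10 rows with a CV over 50%, replicate 4 was the highest library in 5, replicate 3 in 3, replicate 2 in 2 and replicate 1 in 0, whereas replicate 3 was the lowest in 6. The most abundant of them, of rank 19, had 810, 1719, 502 and 2054 TPM. Replicates 2 and 4 were thus high and replicates 1 and 3 low in this row.

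On the TPM scale, no library stood far from the others in median level over the 243 rows. Dividing each library by its median ratio over rows above 0 in all libraries raised the median CV from 14.9% to 19.5%. The median log2 difference between a library and the mean of the other 3, on the log2(TPM + 1) scale, was -0.06, 0.04, 0.06 and -0.06 in replicates 1 to 4, and was -0.02, 0.02, 0.01 and -0.02 over the shared rows. Replicate 3 was the highest library in 86 of the 243 rows (35.4%) and replicate 4 the lowest in 79 (32.5%). In the shared rows, replicate 3 was the highest in 254 (29.7%) and the lowest in 284 (33.2%). As a description across rows, the Spearman correlation between *F. ramosissima* replicates over the 243 rows ranged from 0.825, between replicates 3 and 4, to 0.927, between replicates 2 and 4. Over the shared rows, it ranged from 0.859 to 0.925, and replicates 3 and 4 were again the least alike.

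The selection did not use the running numbers of the rows, and their distribution was examined next. The 243 rows had numbers from 204 to 33294, in a table numbered from 1 to 34045, and the largest gap between consecutive ones was 865 numbers. From row number 19000 on, a boundary chosen earlier with these values in view, there were 142 of the 243 rows (58.4%), compared with 36.7% of the shared rows and 46.9% of all rows. As a share of rows of at least 100 TPM, rows at 0 in *F. sonorensis* made up 15.6% below this number and 30.8% from it on. Over rows of any abundance, the corresponding shares were 20.9% and 45.6%. The share was lowest in the first classes of 2000 numbers, at 6.19% (6 of 97 rows), 8.60% (8 of 93 rows) and 6.90% (6 of 87 rows), and highest in the class from 32001 to 34000, at 48.1% (13 of 27 rows). Over all rows of the table, 13.7%, 13.8% and 16.8% were at 0 in all *F. sonorensis* libraries in the first 3 classes. This share was 59.4% in the class from 32001 to 34000, so the difference between these ends was not confined to abundant rows. In between, it did not rise steadily, with 56.0% from 20001 to 22000 and 34.2% from 26001 to 28000. Among abundant rows, the same classes had 22.7% and 36.4%. What the order of the numbers stands for is not given in the sources used here.

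**Figure D5:**
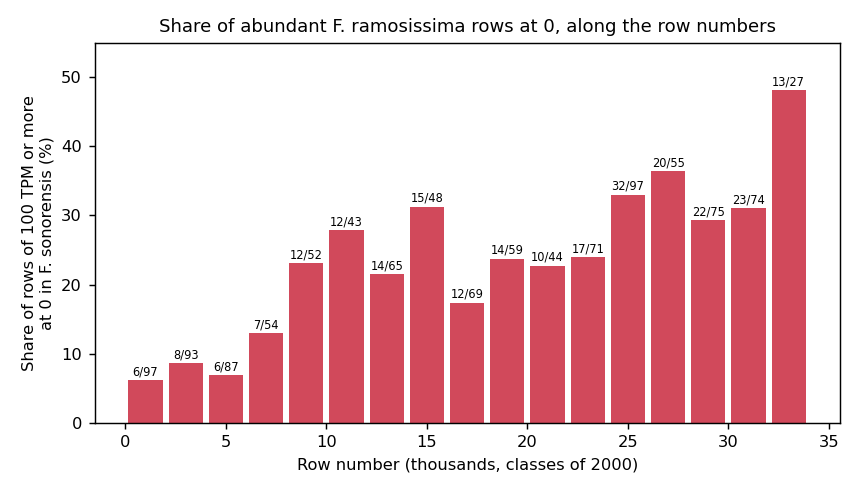
Share (%) of abundant *F. ramosissima* rows (100 TPM or more) that are at 0 in all *F. sonorensis* libraries, in classes of 2000 row numbers; bars are labelled with the number of rows at 0 over the number of abundant rows. The bars are lowest up to number 6000 (6 of 97, 8 of 93 and 6 of 87 rows) and highest in the class from 32001 to 34000 (13 of 27 rows).

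The position in the numbering differed between rows of low and high abundance. From number 19000 on, there were 75 of the 106 rows at 100 to 200 TPM (70.8%), 47 of the 87 rows at 200 to 500 TPM (54.0%) and 20 of the 50 rows at 500 TPM or more (40.0%). For the shared rows, the corresponding shares were 39.8%, 33.7% and 34.6%. Accordingly, the rows below number 19000 were fewer but had a higher median, 312 TPM against 183 TPM, and both parts held a similar share of the TPM, 6.96 ± 0.190% and 6.39 ± 0.169% (SD, n = 4). Of the 10 highest rows, 6 were below number 19000 and 4 from it on.

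Some of the 243 rows lay side by side in the numbering. The numbers directly before and after each of them gave 292 neighbours present in the table. A row lying next to several of them was counted each time. Of the 292 neighbours, 24 (8.22%) were themselves among the 243 rows. Of the 1143 such neighbours of the shared rows, 22 (1.92%) were among the 243 rows, and over the neighbours of all rows the share was 0.874%. Among the 292 neighbours, 47 were abundant in *F. ramosissima* (16.1%, against 7.17% for neighbours of shared rows and 4.34% for those of all rows). At 0 in *F. sonorensis* were 111 of them (38.0%, against 26.9% and 33.0%). Both counts include the 24 rows above, which are abundant and at 0 by the selection rule, so they are not separate from the pairs. The share at 0 also changed along the numbering, which was not taken into account here. The differences between these shares were not tested. The 24 rows formed 12 pairs of consecutive numbers, with no longer run. In 5 of the 12 pairs, both rows lay within 2-fold of each other in mean abundance. One such pair was the rows of rank 63 and 70. The former had 214, 616, 145 and 563 TPM in replicates 1 to 4, and the latter had 198, 618, 126 and 479 TPM. In both rows, replicates 2 and 4 were over 2-fold above replicates 1 and 3. The rows of rank 87 and 81 had similar means, but differed in pattern. The former had 290, 304, 248 and 456 TPM, with replicate 4 highest, and the latter had 335, 348, 357 and 301 TPM, with replicate 4 lowest. The least alike pair in mean abundance, of rank 24 and 190, differed 9.41-fold. Whether reads were shared between consecutive rows was not tested.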

How the data were processed

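RNA-seq of leaves was analysed from a single table of genes by libraries. The values are TPM as deposited by the authors. The submitters' processing notes name RSEM, without a version. The sources used here do not give the aligner, the reference sequences or how genes were matched between the species. TPM keeps no read depth, therefore depth is unknown and no counting interval was given for expression values. Columns were assigned to samples by species and replicate number in the titles.

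Rows were selected at exactly 0 TPM in all *F. sonorensis* libraries and a mean of at least 100 TPM in *F. ramosissima*. These rows, the boundary at row number 19000 and the comparisons were chosen with earlier results of these data known. Levels, ranks, shares of the summed TPM, SD and CV were computed with pandas 2.3.3 and numpy 2.4.6 (Python 3.11.15), using log2(TPM + 1) where a log scale is named. The selection code was run on simulated data, with rows planted above the threshold and at exactly 0 in *F. sonorensis*. All other rows were kept below the threshold in *F. ramosissima*, so their recovery followed from the design. That run covers neither rows near the threshold nor what a 0 stands for. No test between the species was made, since the selection used the contrast between species. The rule for rows described singly took the 10 highest by mean, the 3 highest and 3 lowest by CV, the 3 rows on either side of the threshold, and up to 3 rows above 0 in 1 *F. sonorensis* library, of which there was 1. The row of rank 19, the most abundant row at 0 in 1 or 2 *F. sonorensis* libraries and the pairs of consecutive numbers were added after their values were seen. In total, 26 alternatives were tried, 8 of which left out a library.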

Additional observations from a re-analysis of the deposited data

Results flagged for a closer look

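Dixon's criterion, by which the gap of one library to the nearest is divided by the whole range, was applied to 43 groups of 4 values, and 4 exceeded its 95% critical value. Chance alone gives about 1 in 20. The row of rank 4 stood at 4216 TPM in replicate 4 against 4881 to 4971 TPM in the others, a gap of 0.880 of the range. The row of rank 5 had 2243 TPM in replicate 3 against 3752 to 4032 TPM, a gap of 0.843 of the range. The first row just below 100 TPM had 132 TPM in replicate 3 against 86 to 94 TPM, a gap of 0.840 of the range. The number of the 243 rows among the 50 highest was 9 in replicate 1 and 7 in each other replicate, so the gap was the whole range (a value of 1), as 3 of the counts were equal. Over the rows as a whole, 17 of the 243 rows (6.996%) and 51 shared rows (5.96%) exceeded the criterion.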

How the results depend on the processing

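The number of selected rows was 243, and became 425 at a threshold of 50 TPM and 137 at 200 TPM. Their share of TPM, 13.3%, became 14.8% and 11.8% at these thresholds, 12.7% when the lowest library replaced the mean, 13.5% when values below 1 TPM counted as 0, 12.1% of 1000000 TPM and 12.4% without the highest row. The share of abundant rows at 0, 21.9%, was 20.9% with the lowest library in place of the mean. The median CV, 14.9%, was 16.7% at 50 TPM and 19.5% after dividing each library by its median ratio over rows above 0 in all libraries. It was 33.3% as range over mean. The median SD of log2(TPM + 1), 0.22, was 0.24 at 50 TPM. The median rank, 2.83% of the rows above 0, was 3.43% of rows of at least 1 TPM and 2.38% of all rows. Selection at 100 TPM limits this rank, as described above. The share from row number 19000 on, 58.4%, was 48.9% at 200 TPM, and 65.0% with the boundary at 17000. Without replicate 3 of *F. ramosissima*, the median CV was 13.0% and the median SD of log2(TPM + 1) was 0.19. The median rank was 2.88%, 2.80%, 2.80% and 2.71% of the rows above 0 without replicates 1 to 4 of *F. ramosissima*. The shifts with a total of 1000000 TPM, without the highest row and as range over mean follow from the changed definition. So do those with other sets of ranked rows and with the boundary at 17000. The cause of the remaining shifts was not tested, beyond the other number of rows selected. The other values, 97 of 120 recomputed, moved by less than the replicate spread or, for counts, by less than 1.5 times. For the share of rows by number, they stayed within the 95% Wilson interval. The median CV and the median SD of log2(TPM + 1) have no value for a single library. Their spread was taken as the SD over libraries of each library's median absolute deviation from the row means.

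Leaving out each library gave 241 to 249 rows, 13.3% to 13.4% of TPM, 17 to 18 of the 100 highest rows, 21.8% to 22.3% of abundant rows, a median CV of 13.0% (without replicate 3 of *F. ramosissima*) to 15.4%, a median SD of log2(TPM + 1) of 0.19 to 0.22, a median rank of 2.71% to 2.88% and 57.7% to 58.7% of rows from number 19000 on. In all 8 of these selections, 222 of the 243 rows remained. No paired analysis was made, as the labels link no replicate of one species to a replicate of the other. TPM gives no depth, so the level below which a transcript is listed at 0 is unknown.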
